A study of Mus musculus with 4 samples.

Results

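The genes described are 33 genes of glucose uptake, glycolysis, lactate handling and the hypoxia response, read in myeloid-derived suppressor cells (MDSCs), immature myeloid cells, granulocytic or monocytic, which build up in hosts with tumors and restrain T cells. They were taken by gene symbol from a table of 55416 Ensembl gene IDs, and all 33 symbols had an ID in it. Flow cytometry was used to sort them from the ascites of mice that had received EL4, a mouse T cell lymphoma line, 14 days earlier. One group was wild type (WT, 2 libraries). The other lacked Sphk2 (Sphk2 KO, 2 libraries), which encodes sphingosine kinase 2, a kinase that makes sphingosine 1-phosphate. Both groups carried the same tumor, and their comparison asks which transcriptional programs, metabolic adaptation among them, depend on Sphk2. The labels give neither the sort markers, nor the age or sex of the mice, nor the Sphk2 allele, nor whether each library came from 1 mouse or several, and a p-value here covers no more than the spread between these libraries, which may be technical.

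Glycolysis splits glucose into pyruvate in the cytosol. It needs transporters that let glucose in, kinases that trap and commit it, enzymes that recover ATP, and a route to reduce pyruvate to lactate and export it. Under low oxygen the prolyl hydroxylases stop marking HIF-1α for destruction, and the factor then raises transcription of most of these genes together with genes for blood vessel growth, mitochondrial turnover and collagen folding. Neutrophils live largely on glycolysis, and MDSCs in tumors meet low oxygen.

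The libraries held 14087613 to 24685576 counts, of which the 33 genes took 0.708% to 0.756%. Sphk2 checked the labels, with 54.9 and 53.7 CPM (a gene's counts scaled to a common library total) in WT replicates 1 and 2 and 4.07 and 4.45 in Sphk2 KO replicates 1 and 2, a log2 fold change of -3.67 (SE 0.186, edgeR adjusted p = 0.000127). CPM values are scaled by TMM, a method that sets library sizes so that most genes do not differ. Its factors ran from 0.912 in Sphk2 KO replicate 2 to 1.142 in WT replicate 1, so without TMM the median log2 fold change over all tested genes shifted from 0 (-0.001) to -0.174. Directions below are relative to the TMM scale.

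HIF-1 binds DNA at a core of 5 letters, ACGTG or GCGTG, next to the start of many of these genes. RefSeq promoter windows (GRCm38.p6, 250 bases before to 50 after a start) were at hand for 30 of the 33 genes, and 27 of these (90%) held the core on either strand in at least 1 window, against 46.7% of all 27025 genes with a window. The core holds CG, and the windows of these genes were richer in G and C (median 64.7%) than all windows (52.7%). The palindrome CACGTG, which other factors also read and which holds the core once on each strand, was present in 5 of the 30 genes (16.7%) and in 8.09% of all genes. The 250 bases before the start are shown for the 3 genes with the lowest p between genotypes, Slc16a1 (chr3:104638414-104638663, plus strand), Ddit4 (chr10:59951771-59952020, minus strand) and Hk2 (chr6:82774455-82774704, minus strand), and for the first start of Ldha (chr7:46845554-46845803, plus strand), whose 300-base window held the most matches, 7. Capitals mark the core on either strand, and the coordinates are of GRCm38.p6, not of the build of the counts.
Slc16a1: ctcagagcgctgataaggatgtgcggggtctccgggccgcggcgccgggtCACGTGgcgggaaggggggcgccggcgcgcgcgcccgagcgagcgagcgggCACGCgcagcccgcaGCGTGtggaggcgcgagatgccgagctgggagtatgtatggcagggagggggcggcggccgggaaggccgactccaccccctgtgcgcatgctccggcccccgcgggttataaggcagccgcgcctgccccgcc
Ddit4: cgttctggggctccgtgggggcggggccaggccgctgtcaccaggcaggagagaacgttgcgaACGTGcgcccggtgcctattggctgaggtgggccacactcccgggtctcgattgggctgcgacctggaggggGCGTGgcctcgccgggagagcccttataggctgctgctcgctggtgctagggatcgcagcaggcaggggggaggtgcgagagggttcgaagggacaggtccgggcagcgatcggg
Hk2: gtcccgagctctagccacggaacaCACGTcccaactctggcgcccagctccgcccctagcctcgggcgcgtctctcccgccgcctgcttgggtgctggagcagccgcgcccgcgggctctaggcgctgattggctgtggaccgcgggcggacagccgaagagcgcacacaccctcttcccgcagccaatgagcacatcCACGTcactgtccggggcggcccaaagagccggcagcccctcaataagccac
Ldha: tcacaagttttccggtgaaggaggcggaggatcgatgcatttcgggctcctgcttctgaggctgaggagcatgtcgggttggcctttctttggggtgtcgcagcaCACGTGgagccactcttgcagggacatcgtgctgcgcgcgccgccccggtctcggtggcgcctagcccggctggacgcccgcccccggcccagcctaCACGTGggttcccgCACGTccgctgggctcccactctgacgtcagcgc

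Levels ran from 0.0445 CPM, in Car12, to 1196 CPM, in Pkm, and no gene passed the test between genotypes. Of the 33 genes 32 had enough counts to be tested, and 0 were called (edgeR, adjusted p under 0.05), against 0.109% of the 16566 genes tested. The smallest adjusted p among them was 0.428 (edgeR). At an unadjusted p under 0.05, 1 gene had higher values in Sphk2 KO (3.06% of all tested genes) and 2 had lower values (7.47% of all tested genes), and DESeq2 also called 0. Both Sphk2 KO libraries lay above both WT libraries for 10 of the 32 (20.4% of all tested genes) and below them for 4 (22.7% of all tested genes). With 2 libraries against 2, an exact permutation test of 1 value cannot give a p below 0.333, two-sided.

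Differences between genotypes were small in these libraries. The log2 fold change (Sphk2 KO over WT) had a median of 0.13 over the 32 genes and of 0 (-0.001) over all tested genes, and ran from -0.85 to 0.45. It was positive for 24 and negative for 8, a split that turned to 12 and 20 without TMM, where the median was -0.035 against -0.174 for all genes. The size was under 0.5 for 30 of the 32 genes (93.8%) and for 77.1% of all tested genes. For 29 (90.6%) the 95% interval lay within a 2-fold change in either direction, against 54.5% of all tested genes. These intervals are not adjusted for the number of genes and take the TMM scale as given. They cover no more than the spread between these libraries, which may be technical. The median SE was 0.195 here and 0.279 over all genes. The exceptions were Slc16a1 and Ddit4, whose intervals reached past a 2-fold lower value, and Slc2a3, whose interval ended at 1.001.

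**Figure D1:**
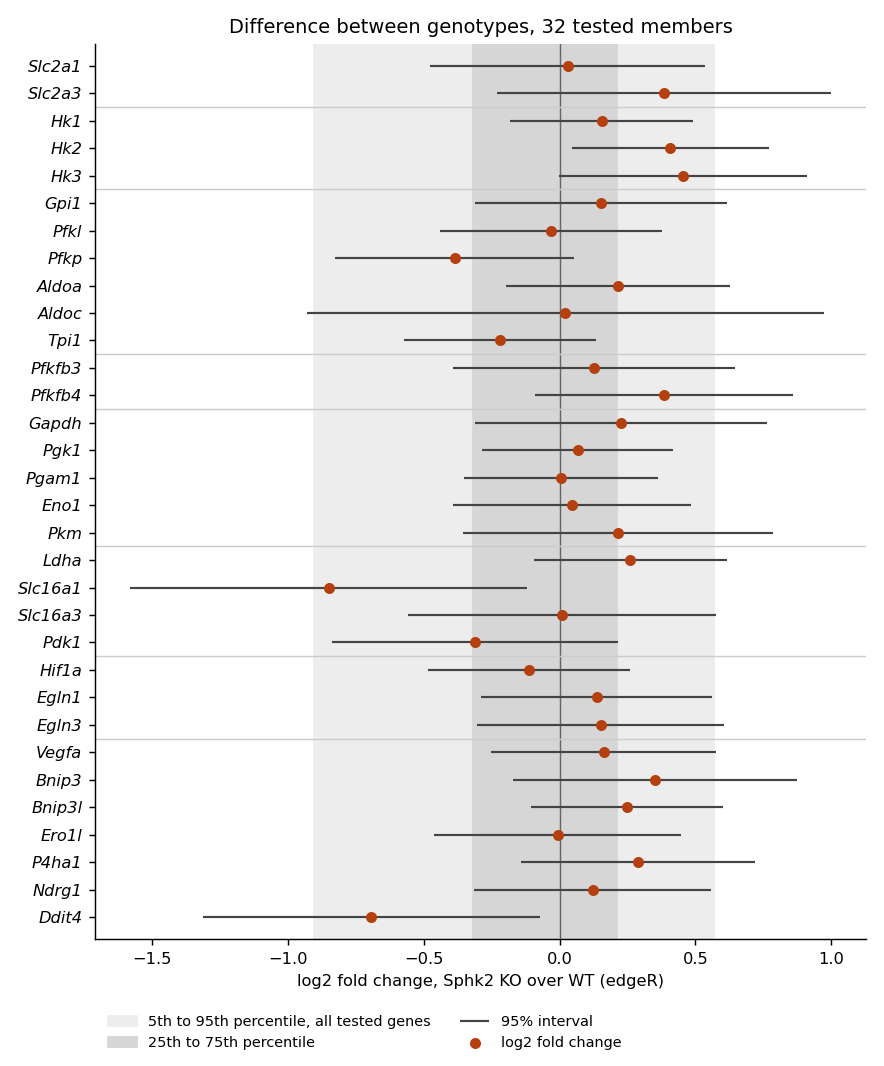
Log2 fold change of Sphk2 KO over WT for the 32 tested genes on the TMM scale (points) with 95% intervals (lines), grouped by role from transporters at the top to HIF targets at the bottom; shaded bands span the 5th to 95th and the 25th to 75th percentile of all tested genes. Only the intervals of Hk2, Slc16a1 and Ddit4 leave out 0, none of the 3 passed the adjusted threshold, and the split of 24 positive against 8 negative values becomes 12 against 20 without TMM.

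Transcripts of both high-affinity glucose transporters were present, with more of Slc2a3 than of Slc2a1 per kilobase in each library. Slc2a3 (ENSMUSG00000003153, chromosome 6), which encodes GLUT3, stood at 407 and 674 CPM in WT replicates 1 and 2 and at 703 and 709 CPM in Sphk2 KO. WT replicate 1 was low and the other 3 libraries lay close together. The log2 fold change of 0.39 (SE 0.268, edgeR adjusted p = 0.627) became 0.06 without WT replicate 1 and 0.81 without WT replicate 2. Slc2a1 (GLUT1) had 180.4 and 274 CPM in WT and 218 and 246 CPM in Sphk2 KO, with the genotypes overlapping, a log2 fold change of 0.03 (95% interval -0.48 to 0.54). Per kilobase of exon, Slc2a3 made up 52.2% and 54.4% of the sum of both in WT and 61% and 58.3% in Sphk2 KO. This share does not depend on library scaling, and its groups did not overlap. It was not tested, and such separation was common, as the shares of Hk3, Pfkl, Pfkp, Pfkfb4 and Ldha in their families were separate too.

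Of the hexokinases, which phosphorylate glucose and keep it in the cell, Hk3 was the most abundant. Hk3 (ENSMUSG00000025877, chromosome 13), an isoform typical of myeloid cells, had 239 and 298 CPM in WT and 401 and 334 CPM in Sphk2 KO, a log2 fold change of 0.45 (SE 0.199, edgeR adjusted p = 0.472). Hk2, a HIF target, had 62.6 and 75.7 CPM in WT and 96.6 and 86.8 CPM in Sphk2 KO, a log2 fold change of 0.41 (SE 0.158, edgeR unadjusted p = 0.0321, adjusted p = 0.439). Hk1, the widely expressed isoform, had 84.9 and 95.5 CPM in WT and 104 and 96.6 CPM in Sphk2 KO. Without WT replicate 1 the values were 0.29 for Hk3 and 0.27 for Hk2. All 3 hexokinases had both Sphk2 KO libraries above both WT libraries on the TMM scale, but without TMM the log2 fold change of Hk1 was -0.009. By share per kilobase, Hk3 held 76% to 79.3% of the hexokinase level across the 4 libraries, Hk2 11.8% to 12.5% and Hk1 8.89% to 11.7%. In CPM, Hk1 lay above Hk2 in each library, so the order of these shares rests on exon length (8532 bases for Hk1, 5969 for Hk2).

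Phosphofructokinase catalyses the first committed reaction of glycolysis. Pfkp, the platelet-type subunit, had 117 and 84.3 CPM in WT and 84 and 70.2 CPM in Sphk2 KO, a log2 fold change of -0.39 (SE 0.192, edgeR adjusted p = 0.511). Pfkl, the liver-type subunit, had 78.7 and 59.3 CPM in WT and 72.3 and 62.8 CPM in Sphk2 KO, a log2 fold change of -0.03. WT replicate 1 was highest for both, the log2 fold change of Pfkp was -0.14 without it, and the genotypes nearly touched for Pfkp and overlapped for Pfkl. Within each library Pfkp held 40.5% and 40.3% of the phosphofructokinase level per kilobase in WT and 34.7% and 34.5% in Sphk2 KO. Pfkl held 54.8% and 56.8% in WT and 60% and 62% in Sphk2 KO, with Pfkm, the muscle-type subunit, holding the rest. In CPM, Pfkp lay above Pfkl in each library. The reverse order of their shares rests on the lengths of all annotated exons, 13401 bases for Pfkp and 6675 for Pfkl. The replicates of a genotype lay closer in the Pfkp share than the genotypes did, although with 2 libraries each this was not tested. This share was singled out after the values of 11 gene families had been seen.

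Aldolase A splits fructose 1,6-bisphosphate into triose phosphates. Its gene Aldoa (ENSMUSG00000030695, chromosome 7) had 361 and 374 CPM in WT and 434 and 418 CPM in Sphk2 KO, a log2 fold change of 0.21 (SE 0.180, edgeR adjusted p = 0.681). Its replicates lay closer to each other than the genotypes did. Gpi1, glucose-6-phosphate isomerase, showed the same order with 621 and 614 CPM in WT and 696 and 677 CPM in Sphk2 KO, a log2 fold change of 0.15 (and -0.018 without TMM). Tpi1, triose-phosphate isomerase, went the other way, from 66.6 and 55.5 CPM in WT to 53.1 and 51.8 CPM in Sphk2 KO, a log2 fold change of -0.22 (SE 0.154, edgeR adjusted p = 0.63). Aldoc, the brain-type aldolase, was near the lower end of detection at 0.927 to 1.16 CPM, with a log2 fold change of 0.02 that was -0.164 without TMM.

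Fructose 2,6-bisphosphate, made and removed by the PFKFB enzymes, is the strongest activator of phosphofructokinase. Pfkfb4 (ENSMUSG00000025648, chromosome 9) was the main PFKFB gene among the 2 in the set, with 322 and 418 CPM in WT and 463 and 503 CPM in Sphk2 KO, a log2 fold change of 0.38 (SE 0.207, edgeR adjusted p = 0.542). Both Sphk2 KO libraries lay above both WT libraries, and the value was 0.20 without WT replicate 1. Pfkfb3, the more strongly kinase-biased enzyme, had 128 and 176 CPM in WT and 136 and 196 CPM in Sphk2 KO, where the genotypes overlapped, a log2 fold change of 0.13 (and -0.036 without TMM). Per kilobase Pfkfb4 held 78.7% to 84.1% of the sum of both.

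**Figure D2:**
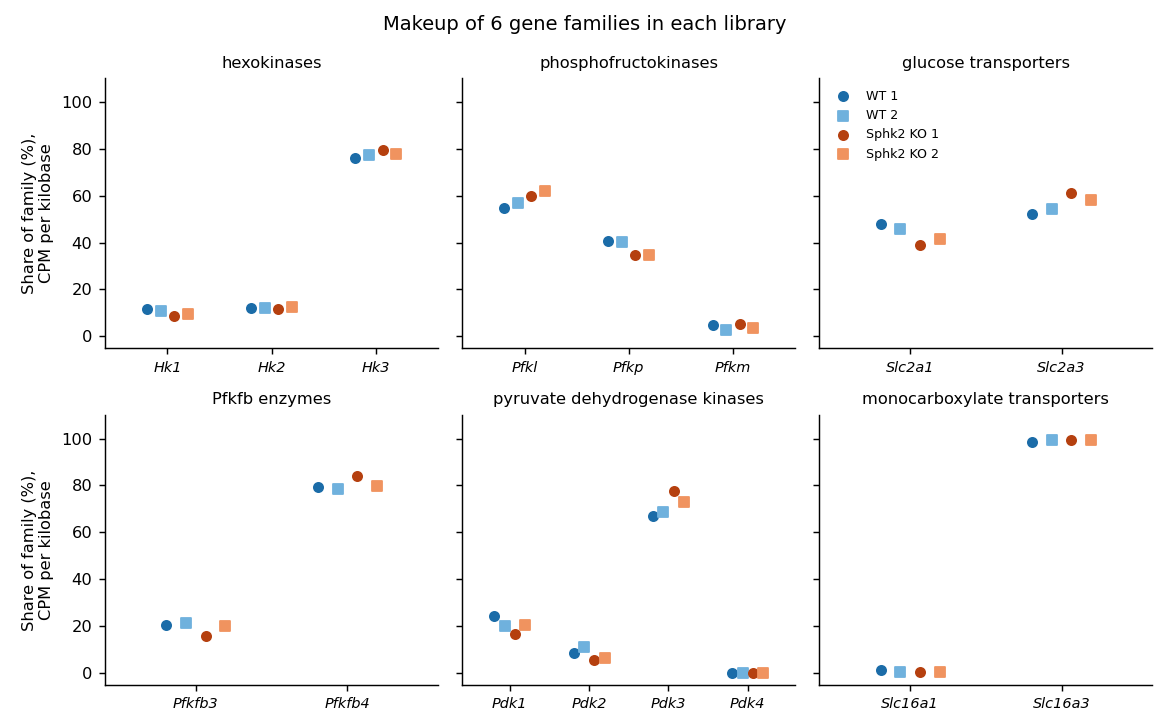
Share of each gene in the level of its family (percent, from CPM per kilobase of exon) in the 4 libraries, for 6 families; circles are replicate 1 and squares replicate 2, blue for WT and orange for Sphk2 KO. Pfkp holds 40.3% to 40.5% in WT and 34.5% to 34.7% in Sphk2 KO, Slc2a3 52.2% to 54.4% and 58.3% to 61%, while Hk2 stays between 11.8% and 12.5% in the 4 libraries.

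Genes of the second phase of glycolysis, in which ATP and NADH are gained, were abundant, and the genotypes overlapped for each of them. Pkm (ENSMUSG00000032294, chromosome 9), the pyruvate kinase gene, had 872 and 1116 CPM in WT and 1111 and 1196 CPM in Sphk2 KO, a log2 fold change of 0.22 (SE 0.248, edgeR adjusted p = 0.758). Per kilobase it ranked 149 of 16350 tested genes with an annotated length, the highest rank of the set. Gapdh, glyceraldehyde-3-phosphate dehydrogenase, had 599 and 774 CPM in WT and 739 and 866 CPM in Sphk2 KO, a log2 fold change of 0.23, and ranked 192. In both genes WT replicate 1 was lowest and WT replicate 2 lay within the Sphk2 KO range.

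Eno1 (enolase), Pgk1 (phosphoglycerate kinase) and Pgam1 (phosphoglycerate mutase) had log2 fold changes of 0.05, 0.07 and 0.01, with 95% intervals of -0.39 to 0.48, -0.28 to 0.42 and -0.35 to 0.36. Eno1 had 473 and 425 CPM in WT and 482 and 445 CPM in Sphk2 KO, and here the spread between replicates exceeded the difference between genotypes. The median over the 5 genes of this phase was 0.07. Copies elsewhere in the genome limit how exact their levels are, since 67.5% of the 75-base stretches of the longest Pgk1 transcript, 65.4% of Eno1, 40.6% of Pgam1, 22.8% of Gapdh and 15.6% of Pkm also occur in transcripts of other genes, mostly processed pseudogenes. The genes that share this sequence held at most 126 counts over the 4 libraries for Pgk1, Eno1, Pgam1 and Pkm. For Gapdh they held 5726 counts, 11% of its own. Most of these lay in the transcribed pseudogene Gm11960 (555 to 1154 per library) and in Peli2 (283 to 676 per library). Peli2 is a protein-coding gene that shares only 15 of the stretches, so the 11% is not a measure of reads in Gapdh copies. Such counts do not show how many shared reads were lost, since their handling was not given. Outside this phase, Bnip3 (31%) and Bnip3l (18.7%) share sequence in the same way, and the levels of these 7 genes are uncertain.

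**Figure D3:**
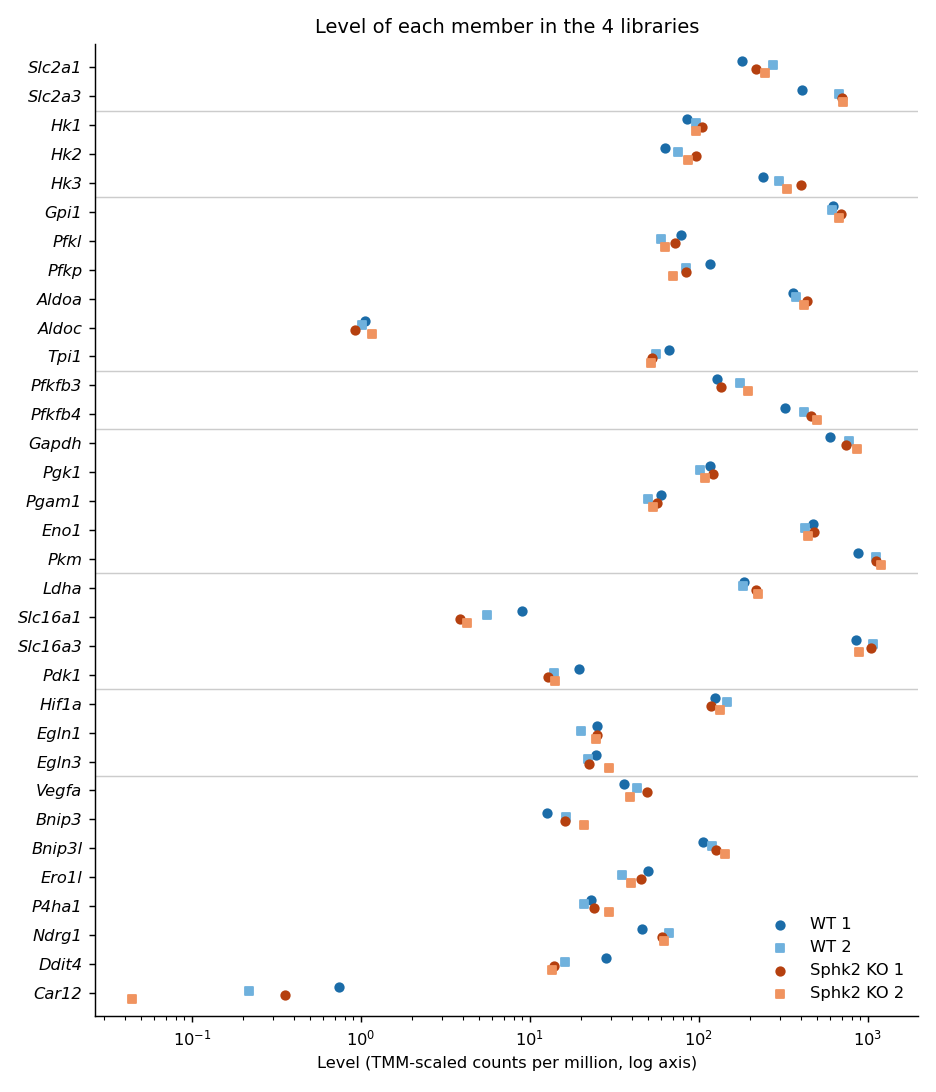
Level of each of the 33 genes in each library (TMM-scaled CPM, log axis), grouped by role; circles are replicate 1 and squares replicate 2, blue for WT and orange for Sphk2 KO. Levels span from Pkm, with 872 to 1196 CPM, down to Aldoc, with 0.927 to 1.16 CPM, and Car12, with 0.0445 to 0.743 CPM.

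Lactate leaves cells through monocarboxylate transporters, and these cells carried nearly only one of the 2 listed. Slc16a3 (ENSMUSG00000025161, chromosome 11), which encodes the export-type transporter MCT4, had 845 and 1077 CPM in WT and 1049.7 and 883 CPM in Sphk2 KO, with overlapping genotypes, a log2 fold change of 0.01 (95% interval -0.56 to 0.58). Slc16a1 (ENSMUSG00000032902, chromosome 3), which encodes MCT1, held 54 to 169 counts per library, or 8.97 and 5.56 CPM in WT and 3.85 and 4.23 CPM in Sphk2 KO. Its log2 fold change of -0.85 (SE 0.318) was the lowest of the set and missed the threshold (edgeR unadjusted p = 0.0276, adjusted p = 0.428). Leaving out WT replicate 1 gave -0.47. Per kilobase, Slc16a3 made up 98.7% to 99.6% of the sum of both genes.

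Ldha, the lactate dehydrogenase subunit that favours lactate, had 186 and 183 CPM in WT and 219 and 223 CPM in Sphk2 KO. The replicates lay close together and the genotypes were separate, yet the log2 fold change of 0.26 missed the threshold (SE 0.154, edgeR adjusted p = 0.569), and without TMM it was 0.09. Pdk1, which blocks entry of pyruvate into the mitochondrial citric acid cycle, was expressed at a low level, with 19.5 and 13.9 CPM in WT and 12.8 and 14.1 CPM in Sphk2 KO, a log2 fold change of -0.31 (SE 0.229, edgeR adjusted p = 0.645). Only WT replicate 1 stood out for Pdk1.

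The oxygen-sensing genes showed no separation of genotypes. Hif1a (ENSMUSG00000021109, chromosome 12) had 124 and 147 CPM in WT and 118 and 133 CPM in Sphk2 KO, a log2 fold change of -0.11 (SE 0.162, edgeR adjusted p = 0.811). HIF-1α is regulated mainly as a protein, which these data do not measure. Egln1 and Egln3 encode prolyl hydroxylases that mark HIF-1α, and Egln3 is itself a HIF target. Egln1 had 25 and 20.2 CPM in WT and 25.1 and 24.7 CPM in Sphk2 KO, and Egln3 had 24.6 and 22 CPM in WT and 22.3 and 29.4 CPM in Sphk2 KO. Their log2 fold changes were 0.14 and 0.15, and -0.046 and -0.034 without TMM.

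Among the other HIF targets, Ddit4 was the one with the largest difference. Ddit4 (ENSMUSG00000020108, chromosome 10), which encodes REDD1, a brake on mTORC1, had 28.1 and 16.1 CPM in WT and 13.9 and 13.5 CPM in Sphk2 KO. WT replicate 1 was high, WT replicate 2 was slightly above the Sphk2 KO libraries, and those lay together. The log2 fold change of -0.69 (SE 0.271, edgeR unadjusted p = 0.0331, adjusted p = 0.441) was -0.24 when WT replicate 1 was left out and -1.02 when WT replicate 2 was.

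The mitophagy receptor gene Bnip3l (ENSMUSG00000022051, chromosome 14) had 106 and 119 CPM in WT and 126 and 142 CPM in Sphk2 KO, a log2 fold change of 0.25 (SE 0.154, edgeR adjusted p = 0.584). Its relative Bnip3 had 12.7 and 16.3 CPM in WT and 16.1 and 20.9 CPM in Sphk2 KO, a log2 fold change of 0.35, with 1 pair of libraries overlapping. P4ha1, a subunit of collagen prolyl hydroxylase, had 22.9 and 20.8 CPM in WT and 23.8 and 29.5 CPM in Sphk2 KO, a log2 fold change of 0.29. Bnip3l and P4ha1 had separate genotypes, while Vegfa (0.16), the vessel growth factor, Ndrg1 (0.12), a stress-induced gene, and Ero1l (-0.01), an oxidase for protein folding in the endoplasmic reticulum, overlapped. Vegfa lay between 35.9 and 49.3 CPM, Ndrg1 between 46.3 and 66.7 CPM and Ero1l between 35.2 and 50 CPM. Car12, a carbonic anhydrase strongly induced by hypoxia in many tumors, was too low to test, with counts of 14 and 3 in WT against 5 and 1 in Sphk2 KO.

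Compared per kilobase over the 4 libraries, Pkm (215), Slc16a3 (181), Gapdh (180.2), Aldoa (136) and Gpi1 (101) led the set, in CPM per kilobase. These and Pfkfb4 (87.5), Hk3 (86.3), Slc2a3 (86) and Eno1 (84.8) were the 9 genes within the first 500 of 16350. Pkm ranged from 174 to 239, Slc16a3 from 159 to 203 and Gapdh from 145 to 209.5 CPM per kilobase over the libraries, and these ranges overlapped. Within a library Pkm was nevertheless above both others in each of the 4, while the order of Slc16a3 and Gapdh changed between libraries, as did that of each pair among Pfkfb4, Hk3, Slc2a3 and Eno1. At the low end, Pdk1 (1.94), Slc16a1 (1.28) and Aldoc (0.319) stood below every other gene of the set except Car12. The lengths are those of all annotated exons in an older gene set, so ranks are approximate.

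Markers of cell types were not balanced between the libraries. The summed level of 13 neutrophil markers was 24378 and 31515 CPM in WT replicates 1 and 2 and 37871 and 42998 CPM in Sphk2 KO replicates 1 and 2, and 9 of the 13 had both Sphk2 KO libraries above both WT libraries. Over all tested genes 20.4% were separate in this way and 22.7% in the opposite way, the shares against which the counts of the other lists stand too. The summed level of the 33 genes, at 6323 and 7453 CPM in WT and 7758 and 7778 CPM in Sphk2 KO, was also lowest in WT replicate 1. That library was the lowest of the 4 for 15 of the 32 tested genes, against 32.8% of all tested genes. The 10 T cell and EL4 markers summed to 59 and 52.1 CPM in WT and 39.7 and 33.3 CPM in Sphk2 KO (7 of 10 separate, all lower), and the 7 B cell markers to 493 and 483 CPM in WT and 411 and 249 CPM in Sphk2 KO (5 of 7 separate, all lower). Of 8 red cell markers 7 were separate and higher, with sums of 65.6 and 195 CPM in WT and 333 and 582 CPM in Sphk2 KO. The 13 monocyte and macrophage markers overlapped in their sums, at 2649.5 to 3332 CPM in WT and 2473 to 3346 CPM in Sphk2 KO, as did the 7 dendritic cell and 5 platelet markers. Of the monocyte and macrophage markers 2 were separate and lower, and 0 separate and higher. Itgax, at 119 to 171 CPM, made up most of the dendritic cell sum. In that list Zbtb46 was separate and higher, and Flt3 separate and lower.

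No marker of these 7 lists was at 0 in all libraries. Cd3e, which defines T cells, stood at 0.489 to 2.18 CPM and was separate and lower in Sphk2 KO, as was Cd3g. Cd3d stood higher, at 5.42 to 9.48 CPM, and its genotypes overlapped. Ly6g, which defines granulocytic MDSCs, had 47.1 and 69.4 CPM in WT and 103 and 113 CPM in Sphk2 KO, beside the higher values of Hk3, Pfkfb4 and Slc2a3. The lower lymphocyte markers stand beside the lower values of Slc16a1, Ddit4 and Pfkp, and the higher red cell markers beside those of Bnip3l. Their part in these differences was not tested, and in sorted bulk cells fewer cells of a type and less RNA per cell cannot be told apart.

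**Figure D4:**
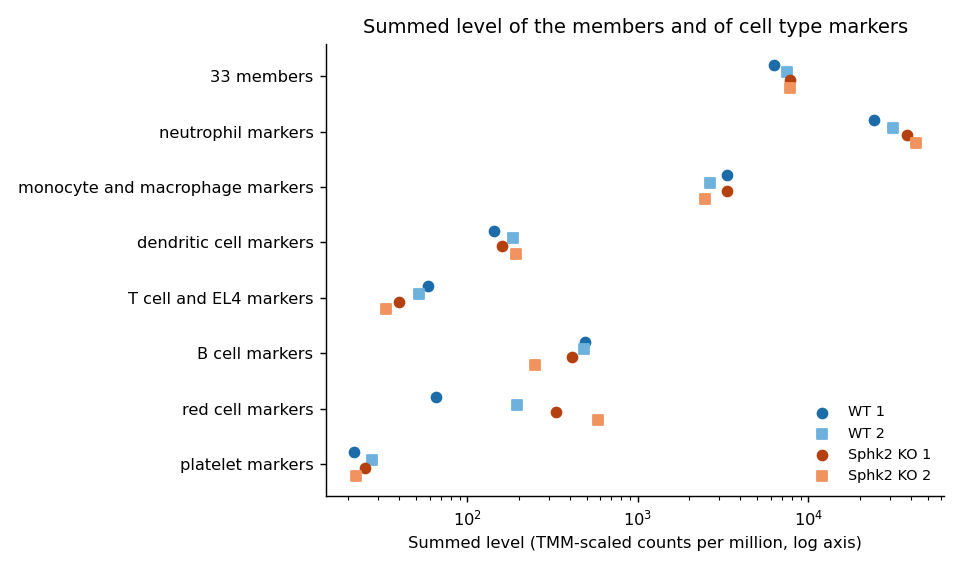
Summed level (TMM-scaled CPM, log axis) of the 33 genes and of 7 lists of cell type markers in each library; circles are replicate 1 and squares replicate 2, blue for WT and orange for Sphk2 KO. Neutrophil markers run from 24378 CPM in WT replicate 1 to 42998 CPM in Sphk2 KO replicate 2 and red cell markers from 65.6 to 582 CPM, while T cell markers run from 59 down to 33.3 CPM.

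Neighbouring genes of the same pathways were read in 6 lists. These held 129 matched genes, of which 104 were tested, 0 were called (edgeR, against 0.109% of all genes; DESeq2 also called 0), and 4 had higher and 11 lower values in Sphk2 KO at an unadjusted p under 0.05, against 3.06% and 7.47% of all tested genes. Genes of the pentose phosphate pathway and of glycogen, the other fates of glucose 6-phosphate, had a median log2 fold change of 0.21 over 15 tested genes, with 7 separate and higher and 1 separate and lower (20.4% and 22.7% of all tested genes). Genes of pyruvate entry into mitochondria had a median of -0.15 over 12, with 0 separate and higher and 3 separate and lower, the latter near the share of all tested genes (22.7%). The medians were -0.06 for other isoforms and side enzymes of glycolysis (18 genes), 0.10 for HIF subunits and their partners (13), 0.12 for further HIF targets (31) and 0.11 for regulators of glycolysis (15).

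The lowest value of these lists belonged to Stc2, a secreted glycoprotein gene induced by hypoxia and stress. Its counts were 44 and 12 in WT against 0 and 7 in Sphk2 KO, a log2 fold change of -3.10 (SE 0.846, edgeR adjusted p = 0.401). Stc2 was called without the count filter (edgeR adjusted p = 6.78e-05), a setting that called 2.07% of all genes against 0.109% with the filter. With a replicate block, which called 15.9% of all genes, Stc2 was called too, as were the other neighbouring genes named here and below. Rptor, which encodes the mTORC1 scaffold raptor, had 42.8 and 25.7 CPM in WT and 23.8 and 20.5 CPM in Sphk2 KO, a log2 fold change of -0.63 (SE 0.250, edgeR adjusted p = 0.443) and was called without WT replicate 2 (-0.94, edgeR adjusted p = 0.0162), while without WT replicate 1 it was -0.22. Trp53, the p53 gene, had 28.7 and 27.4 CPM in WT and 21.3 and 16.2 CPM in Sphk2 KO, a log2 fold change of -0.58 (edgeR adjusted p = 0.424). Prkab1, a subunit of the energy sensor AMPK, was higher at 73.8 and 74.7 CPM in Sphk2 KO against 48.9 and 63.9 CPM in WT, a log2 fold change of 0.40 (edgeR adjusted p = 0.465).

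Lower values also stood in Rora (-1.14) and Bhlhe41 (-0.90), transcription factor genes of the clock that HIF can induce, in Siah2 (-0.50), a ubiquitin ligase for prolyl hydroxylases, and in Pdp2 (-0.93), a pyruvate dehydrogenase phosphatase. Slc2a8 (-1.20), which encodes the intracellular transporter GLUT8, Slc16a7 (-0.86), which encodes MCT2, and Minpp1 (-0.91), an inositol phosphate phosphatase, were lower as well. None of these 7 genes passed (edgeR adjusted p 0.417 to 0.472). For each, both Sphk2 KO libraries lay below both WT libraries, as they did for 22.7% of all tested genes. The genes were named for a low unadjusted p in these same libraries, so the separation adds nothing to that p.

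**Figure D5:**
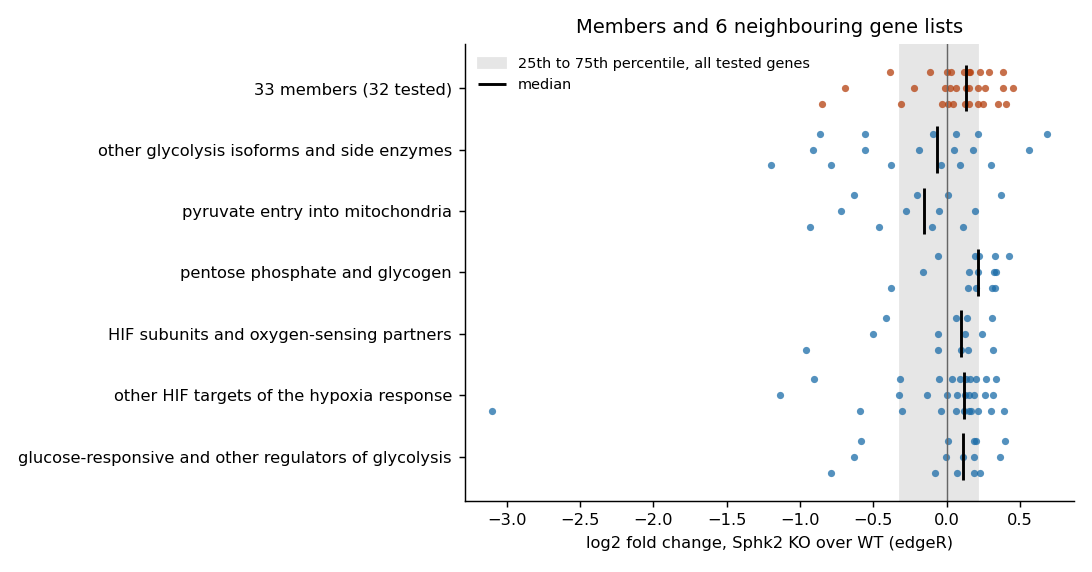
Log2 fold change of Sphk2 KO over WT on the TMM scale for the tested genes of the set and of 6 neighbouring gene lists; each point is a gene, black bars are medians, and the band spans the 25th to 75th percentile of all tested genes. The medians lie between -0.15 and 0.21, and Stc2 at -3.10 is the lowest point; without TMM the median of the first row is -0.035.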

How the data were processed

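Poly(A) RNA of 4 libraries was sequenced after library preparation from 250 ng of RNA with a directional kit, per the labels' protocols. The authors deposited raw counts per Ensembl gene ID. Trim Galore, STAR, featureCounts, DESeq2 and the build GRCm39 are named in the submitters' processing notes. Versions, annotation, strand setting and handling of reads with several positions were not given in the sources used here, so reads of near-identical copies, and of the 11 genes of the set whose exons lie opposite another gene's, are uncertain.

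Symbols were matched for 52083 of the IDs, and 129 of 130 pathway genes were found. Where IDs shared a symbol, the one with most counts kept it. Counts were tested with edgeR 4.0.16 (R 4.3.3, filterByExpr, TMM, glmQLFTest, genotype only) over all genes, with Benjamini-Hochberg adjustment. The SE is the log2 fold change over the root of the F statistic, and the interval uses the t quantile of the test's degrees of freedom. The procedure was tested on simulated data with changes of 2-fold and more, larger than the estimate of any tested member. That run therefore does not show how often differences of the size found in the members would be called. Exon lengths, overlaps and shared 75-base stretches come from GENCODE M21 (GRCm38), matched by gene ID, and promoters from RefSeq. Alternatives were DESeq2 1.42.0, RLE factors, library size alone, no filter, at least 1 CPM in 2 libraries, a replicate block, and each library left out.

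Values are given in full for members with an unadjusted p under 0.05 or an absolute log2 fold change of at least 0.5 and for the most abundant member of each role. Other members shown library by library were chosen after their values were seen. Of each neighbouring list, called genes and up to 3 with the smallest unadjusted p under 0.05 were named. The members, lists and rules were chosen with earlier results of these data known.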

Additional observations from a re-analysis of the deposited data

How the results depend on the processing

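Counts of called genes depended on the design and on which library was left out. Over all genes edgeR called 18, against 76 with DESeq2, 615 without the count filter, 2637 with a replicate block and 54 to 1061 with a library left out. With a replicate block edgeR called 5 of the 32 tested members (Hk2 and Hk3 higher, Pfkp, Slc16a1 and Ddit4 lower) and 19 of the neighbouring genes, against 15.9% of all tested genes. The 11 neighbouring genes named for a low unadjusted p, Stc2 among them, were part of the 19. Same-numbered libraries deviated together (r = 0.438 across 16566 genes, which are not independent). With 2 libraries per group, replicates 1 and 2 give the same r by construction, and the swapped pairing gives it with a minus sign. A positive r thus arises under the given or the swapped numbering, whatever the numbers mark. The labels do not say that a number marks a shared batch. Leaving out a library gave 0 to 2 called members and 0 to 5 neighbouring genes, the highest without WT replicate 2 (5.93% of all genes), and a lone library was assumed to vary like the other group. Without the count filter 1 neighbouring gene was called, Stc2. The members' median log2 fold change was 0.162 with DESeq2, -0.035 with library size alone and 0.087 to 0.225 with a library left out. Genotypes were separate for 20 to 27 members with a library left out (63.1% to 81.4% of all tested genes, since fewer libraries overlap less), and for 10 with library size alone (41.4%), against 14 (43.2%).

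No sign change involved a member whose log2 fold change exceeded 0.162, and 16 members kept their sign throughout the alternatives run. Negative signs with library size alone, beside a shift of all genes to -0.174, were -0.122 in Slc2a1, -0.009 in Hk1, -0.018 in Gpi1, -0.164 in Aldoc, -0.036 in Pfkfb3, -0.11 in Pgk1, -0.174 in Pgam1, -0.13 in Eno1, -0.146 in Slc16a3, -0.046 in Egln1, -0.034 in Egln3 and -0.033 in Ndrg1. Under the stricter filter Pgam1 gave -0.002 and Slc16a3 -0.00065. Ero1l gave 0.026 with DESeq2, 0.01 with RLE factors and 0.012 with the replicate block, and Pfkl 6.5e-05 with DESeq2. With a library left out the ranges were -0.252 to 0.378 in Slc2a1, -0.207 to 0.177 in Pfkl, -0.154 to 0.149 in Aldoc, -0.155 to 0.388 in Pfkfb3, -0.023 to 0.153 in Pgk1, -0.102 to 0.132 in Pgam1, -0.019 to 0.112 in Eno1, -0.167 to 0.209 in Slc16a3, -0.244 to 0.037 in Hif1a, -0.059 to 0.329 in Egln3, -0.016 to 0.326 in Vegfa, -0.22 to 0.259 in Ero1l and -0.131 to 0.423 in Ndrg1. The cause of these changes was not tested. Depth limits Car12, Aldoc and Stc2, which have under 50 counts in each library.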

Other observations

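Other gene families that the set covers only in part can be read by share. Per kilobase of exon, Ldha held 95.8% to 98.1% of the lactate dehydrogenase level, with Ldhb holding the rest. Eno1 held 92.4% to 95% of the enolase level and Eno3, the muscle-type gene, 4.88% to 7.48%. Among the prolyl hydroxylases Egln2 led with 47.9% to 56.2%, above Egln3 (24.9% to 32.1%) and Egln1 (17.8% to 20.8%). Of the pyruvate dehydrogenase kinases, Pdk3 was the main gene, with 67.1% and 68.8% in WT and 77.7% and 73.1% in Sphk2 KO, while Pdk2 held 8.49% and 11.1% in WT and 5.51% and 6.59% in Sphk2 KO. The genotypes were separate for both shares, which were singled out after the values were seen and were not tested. In CPM, Pdk1 (19.5) lay above Pdk3 (17.7) in WT replicate 1, so the lead of Pdk3 there rests on exon length.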
